A study of Mus musculus with 5 samples.

Results

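The genes described here are the secreted Wnt ligands, their Frizzled receptors and Lrp co-receptors, the R-spondins, the secreted Wnt antagonists and the nuclear factors at the end of the pathway. They were chosen by gene symbol in the platform annotation: Wnt, Fzd, Sfrp, Rspo and Dkk family names, with Wif1, Axin2, Lrp5, Lrp6, Tcf7l1, Tcf7l2 and Lef1. Tcf7 also belonged to the rule, but no probe carried its symbol. The rule found 56 probes for 49 genes, out of 19084 genes with a named probe. The study hybridised RNA of 5 mouse samples to 1 single-colour array each. The iLC group, called induced Leydig-like cells by the submitters, is 2 arrays of embryonic fibroblasts of 13.5 days that were exposed to lentivirus carrying Dmrt1, Gata4 and Nr5a1 for 12 hours. They were then kept in a medium holding 50 ng/ml of IGF and 10 ng/ml of PDGFAA. The Leydig group comprises 2 arrays of cells isolated from testes of mice aged 56 days. The MEF group is 1 array of embryonic fibroblasts of the same embryonic age, transduced with a mock vector. Whether the mock-transduced cells received the same medium, how long iLC were cultured, how the Leydig cells were purified and which mouse strain was used: none of this is given in the labels. The labels also leave out whether the 2 arrays of a group came from separate cultures or animals, so a p-value covers only the variation between these particular arrays, which may be technical.

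Wnt proteins are lipid-modified secreted signals that bind Frizzled receptors. Together with the co-receptors Lrp5 and Lrp6 they keep beta-catenin from being degraded, so that it can act with Tcf and Lef factors on target genes such as Axin2, while other Wnt proteins act through receptors such as Ror2 without beta-catenin. Sfrp and Wif1 proteins bind Wnts outside the cell, Dkk1 and Dkk2 block the co-receptors, and R-spondins strengthen the signal by holding off the removal of Frizzled receptors. In the mouse gonad, Wnt4 and Rspo1 are known for their part in ovarian development.

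The promoters of 3 genes are shown because their genes read far higher in some groups than in others: Sfrp5 and Wnt2 were the members called between iLC and MEF, and Wnt6 was called between Leydig cells and both other groups. Each window runs from 250 bases before to 50 bases after the RefSeq gene start (build GRCm38.p6), 5′ to 3′ on the gene's strand, and capitals mark matches to AGATAA or TGATAA on either strand, letters bound by GATA factors.
Sfrp5 (chr19:42202203-42202502, minus strand): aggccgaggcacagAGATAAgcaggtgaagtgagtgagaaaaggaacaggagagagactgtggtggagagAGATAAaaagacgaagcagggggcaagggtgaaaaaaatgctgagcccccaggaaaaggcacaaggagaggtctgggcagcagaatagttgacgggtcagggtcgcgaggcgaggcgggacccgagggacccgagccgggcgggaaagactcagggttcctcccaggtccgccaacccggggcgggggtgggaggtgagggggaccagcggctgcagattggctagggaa
Wnt2 (chr6:18030396-18030695, minus strand): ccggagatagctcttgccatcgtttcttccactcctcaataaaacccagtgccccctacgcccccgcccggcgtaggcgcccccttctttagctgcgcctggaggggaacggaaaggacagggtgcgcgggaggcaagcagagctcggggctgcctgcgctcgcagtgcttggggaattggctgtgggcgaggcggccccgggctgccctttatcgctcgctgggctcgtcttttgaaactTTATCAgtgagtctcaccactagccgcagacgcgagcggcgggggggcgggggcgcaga
Wnt6 (chr1:74771642-74771941, plus strand): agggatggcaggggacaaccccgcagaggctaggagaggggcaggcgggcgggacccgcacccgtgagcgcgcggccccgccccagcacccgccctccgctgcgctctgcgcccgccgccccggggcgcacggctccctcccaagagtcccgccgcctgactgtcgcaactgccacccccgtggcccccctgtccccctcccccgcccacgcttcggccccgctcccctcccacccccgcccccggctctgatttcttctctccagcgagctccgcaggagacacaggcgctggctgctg

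The Sfrp5 window held 2 such matches, at its bases 15 to 20 and 71 to 76, the Wnt2 window held 1, on the opposite strand at bases 242 to 247, and the Wnt6 window held none. Of 40 windows that RefSeq gave for 33 of the 49 genes, 6 (15%) held a GATA match, against 18.6% of all 32851 windows of that table. A match to AAGGTCA, letters bound by Nr5a1, was found in 1 window, that of Dkkl1 (2.5%, against 4.72% of all windows). A match to CTTTGAA or CTTTGAT, letters bound by Tcf and Lef factors, was found in 3 windows (7.5%, against 8.65%). No other motif searched matched in the 3 windows printed. The windows of the family were richer in CpG than those of all genes, with a median of 25.5 CpG dinucleotides and 67.3% G or C, against medians of 7 and 52.7% over the table. Windows of 1 gene can overlap, and a match describes letters only.

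Each array held 26423 probes, and median intensities ran from 1111 to 1230. The low ends of the arrays differed, the 1st percentile being -10.1 and 23.7 on the iLC arrays, 36.9 and 21.0 on the Leydig arrays and 83.8 on the MEF array, so a dim probe can differ between arrays by that offset alone. Wnt8a, Fzd4 and Lrp6 lay under the 20th percentile of all probes on every array. To set beside the marker calls, 5.74% of all genes were called higher and 5.69% lower in iLC than in Leydig cells. In Leydig cells against MEF, 3.39% were called higher and 3.99% lower. Of the 6 Leydig cell markers measured, Cyp17a1, Hsd3b1 and Nr5a1 were called higher in Leydig cells than in both other groups. Nr5a1, also a delivered factor, read 1509 and 1158 in iLC, 68030 and 44721 in Leydig cells and 1265 in MEF, and whether its probe reads the delivered transcript was not tested. Star ran the other way without a call, reading 56878 and 73892 in iLC, 1368 and 19703 in Leydig cells and 695 in MEF. Cyp11a1 and Hsd17b3 were not called. Cyp11a1 was lowest in Leydig cells, reading 603 and 907 in iLC, 510 and 451 in Leydig cells and 562 in MEF. Insl3, Lhcgr and Hsd3b6 were not analysed here. Markers of other cells differed between groups member by member. Of 8 Sertoli cell markers, Clu and Cldn11 were called higher in Leydig cells than in both other groups, and the other 6, among them Sox9, Fshr and the dim Amh, were not called. The Sertoli sum, 52686 and 90037 in iLC, 346642 and 379085 in Leydig cells and 30262 in MEF, was mostly Clu, at 45638 and 82916 in iLC, 332720 and 369002 in Leydig cells and 23087 in MEF. Of 9 germ cell markers, Dazl, Prm1 and Tnp1 were called lower and Spaca1 higher in iLC than in Leydig cells, and the list summed to 11378 and 10750 in iLC, 22922 and 304822 in Leydig cells and 8947 in MEF. Of 5 macrophage markers, Csf1r and C1qa were called lower in Leydig cells than in both other groups, and Adgre1 was called lower in Leydig cells than in MEF only. The macrophage list summed to 24321 and 41747 in iLC, 12337 and 11036 in Leydig cells and 84548 in MEF. Of 4 endothelial markers, Cdh5 was called higher in Leydig cells than in both other groups, and the list summed to 5560 and 6425 in iLC, 13916 and 9557 in Leydig cells and 4360 in MEF. Without a call, Kdr and Pecam1 read lower in Leydig cells than in iLC, and Tek read higher. Kdr read 2802 and 3401 in iLC, 1709 and 1591 in Leydig cells and 2087 in MEF. Of 8 fibroblast markers, Postn, Thy1, Fn1 and Lox were called lower in Leydig cells than in both other groups, and Pdgfra was called higher, reading 28814 and 20535 in iLC, 180686 and 92654 in Leydig cells and 15980 in MEF. The fibroblast sum was 566702 and 452923 in iLC, 292920 and 119494 in Leydig cells and 1055261 in MEF. Of 5 smooth muscle markers, Acta2, Myh11, Tagln and Des were called lower in Leydig cells than in both other groups, with sums of 536077 and 478245 in iLC, 33772 and 49212 in Leydig cells and 584564 in MEF. No marker of these lists was at 0 on any array. The part of these markers in the results below was not tested, and in such bulk samples fewer cells of a type and less RNA per cell cannot be told apart.

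Differences are given on the log2(intensity + 16) scale, which understates differences of dim probes, with the standard error of the limma fit over the 5 arrays. A gene is called where its p-value, adjusted by Benjamini-Hochberg over all 19084 genes, was under 0.05. The lone MEF array was taken to vary like the iLC and Leydig pairs. Between iLC and MEF, Sfrp5 and Wnt2 were the members called higher, 2 of 49 (4.08%), against 0.283% of all genes called higher. None was called lower by limma, against 0.288% of all genes, while at an unadjusted p under 0.05 there were 7 members higher and 3 lower, against 5.57% and 10.2% of all genes. By a rule of size, 5 members (10.2%) read higher on both iLC arrays than on the MEF array with a log2 difference of 2 or more, against 1.68% of all genes: Sfrp1, Sfrp4, Sfrp5, Wnt2 and Wnt6. By the same rule 1 member, the dim Lrp6, was lower, or 2.04% against 3.14%. The median difference of the 49 genes was 0.14, against -0.11 over all genes.

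Between iLC and Leydig cells, 10 of 49 members (20.4%) were called higher in iLC, against 5.74% of all genes, and 2 (4.08%) were called lower, against 5.69%. The 10 were Dkk2, Dkk3, Sfrp1, Sfrp5, Wnt2, Wnt5a, Wnt11, Fzd6, Fzd7 and Rspo3, and the 2 were Wnt6 and Rspo1. By the rule of size, 9 members (18.4%) were higher, against 3.92% of all genes, and 1, Wnt6, was lower (2.04%, against 4.74%). The median difference was 0.44, against -0.03 over all genes. Between Leydig cells and MEF, Wnt6 and Rspo1 were called higher in Leydig cells (4.08%, against 3.39% of all genes), and Dkk2, Dkk3, Fzd7, Rspo3 and Wnt9a lower (10.2%, against 3.99%). By the rule of size, Rspo1, Sfrp4 and Wnt6 were higher (6.12%, against 4.64% of all genes) and Dkk2, Dkk3, Fzd7 and Rspo3 lower (8.16%, against 4.40%). The median of the family was -0.38, against -0.10 over all genes. The comparisons share arrays and are not independent of each other.

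**Figure D1:**
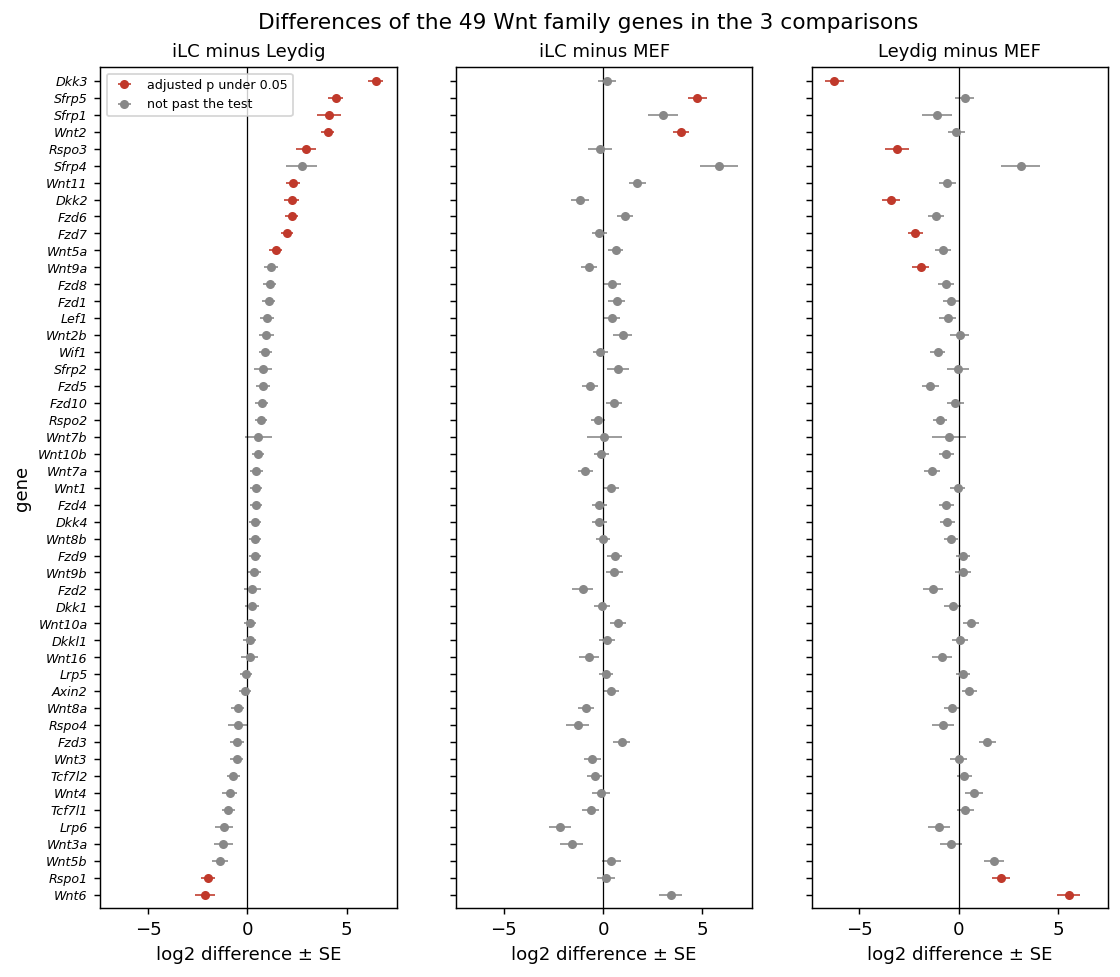
Log2 difference with its standard error for each of the 49 genes (rows, ordered by the iLC minus Leydig difference) in the 3 comparisons, with called genes in red. Dkk3 leads the first panel at 6.46 and Wnt6 closes it at -2.14, while the second panel has 2 called genes, Sfrp5 and Wnt2.

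Among the 19 Wnt ligands, Wnt2 set iLC apart from both other cell kinds. Wnt2, a ligand of the beta-catenin branch known from lung and placental development, read 7332 and 6959 on the iLC arrays, 337 and 517 on the Leydig arrays and 455 on the MEF array. The iLC values lay far above all others, and the MEF value fell between those of the Leydig pair. The log2 difference was 4.04 ± 0.34 (SE, limma adjusted p = 0.0019) from Leydig cells and 3.93 ± 0.42 (adjusted p = 0.0331) from MEF. The call against Leydig cells held whichever of the 4 iLC and Leydig arrays was left out (highest adjusted p = 0.0306), with differences of 3.75 to 4.34. Against MEF, leaving out any 1 of them ended the call (adjusted p = 0.125 to 0.147), with differences of 3.89 to 3.96. In that comparison limma called no gene of all 19084 once an array was left out, with 2137 or more at an unadjusted p under 0.05.

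Wnt6, a ligand known from epithelia, showed a graded order. It read 17937 and 7011 on the iLC arrays, 48967 and 49990 on the Leydig arrays and 1044 on the MEF array. No groups overlapped: Leydig cells were highest, iLC were between and MEF lowest. Wnt6 was lower in iLC than in Leydig cells by a log2 difference of -2.14 ± 0.49 (SE, limma adjusted p = 0.0412), and it was higher in Leydig cells than in MEF by 5.55 ± 0.60 (adjusted p = 0.00617). Its difference between iLC and MEF was 3.41 ± 0.60 and did not pass (adjusted p = 0.0761). The iLC to Leydig call ended when iLC replicate 2, Leydig replicate 1 or Leydig replicate 2 was left out (highest adjusted p = 0.211), the difference ranging from -2.82 to -1.46. The Leydig to MEF call was lost without either Leydig array (highest adjusted p = 0.0705), with a difference of 5.53 to 5.56 throughout. The markers Clu, Cldn11, Dazl, Cdh5, Pdgfra, Cyp17a1, Hsd3b1 and Nr5a1 were also called higher in Leydig cells than in both other groups. Other members of their lists went the other way. Spaca1, Postn, Thy1, Fn1 and Lox were called lower in Leydig cells than in iLC. Star, Kdr and Sox9 read lower there than in iLC without a call. The part of these markers in the Wnt6 differences was not tested.

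Wnt11 and Wnt5a, ligands known for signalling without beta-catenin in cell movement and polarity, were higher in iLC than in Leydig cells. Wnt11 read 2200 and 3710 in iLC, 543 and 594 in Leydig cells and 846 in MEF. The iLC pair did not overlap with either group, and the log2 difference was 2.30 ± 0.37 (SE, limma adjusted p = 0.0131) from Leydig cells and 1.74 ± 0.45 (adjusted p = 0.156) from MEF. Wnt5a read 45569 and 58050 in iLC, 17087 and 21654 in Leydig cells and 33238 in MEF. Its MEF value stood between the other groups, and its difference from Leydig cells was 1.42 ± 0.33 (adjusted p = 0.0435). Leaving out iLC replicate 2 or a Leydig array ended the Wnt11 call (highest adjusted p = 0.0954, difference 1.92 to 2.67), and leaving out any 1 of the 4 arrays ended that of Wnt5a (adjusted p = 0.114 to 0.174, difference 1.24 to 1.59).

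Wnt9a, a ligand of joint development, read 7399 and 5068 in iLC, 2457 and 2903 in Leydig cells and 10051 in MEF. It was lower in Leydig cells than in MEF (log2 difference -1.91 ± 0.42 SE, limma adjusted p = 0.0491), but not once any 1 of the 4 arrays was left out (highest adjusted p = 0.152, difference -2.03 to -1.79). Wnt5b read 1987 and 1237 in iLC, 5084 and 3274 in Leydig cells and 1172 in MEF, so both Leydig values lay above the other 3, without a call (adjusted p = 0.0822 for iLC against Leydig cells and 0.0918 for Leydig cells against MEF). Wnt4, the ligand of ovarian development, read 813 and 1184 in iLC, 2223 and 1513 in Leydig cells and 1056 in MEF, and did not pass in any comparison. Wnt7b varied widely within pairs, reading 2173 and 841 in iLC, 484 and 1717 in Leydig cells and 1286 in MEF, with groups that overlapped throughout. The other 11 ligands, Wnt1, Wnt2b, Wnt3, Wnt3a, Wnt7a, Wnt8a, Wnt8b, Wnt9b, Wnt10a, Wnt10b and Wnt16, were called in no comparison. Over the 5 arrays, Wnt1 read between 2349 and 3666, Wnt2b between 1666 and 4415, Wnt9b between 2108 and 3408 and Wnt10a between 1001 and 1805. Wnt2b, with 4415 and 4140 in iLC, was above the other arrays without passing (adjusted p = 0.178 against Leydig cells and 0.367 against MEF). The dimmer ones read between 535 and 1029 (Wnt3), 330 and 929 (Wnt7a), 235 and 340 (Wnt8b), 73.3 and 173 (Wnt8a), 156 and 248 (Wnt10b) and 301 and 717 (Wnt16). Wnt3a read 122 and 233 in iLC, 298 and 566 in Leydig cells and 541 in MEF, a range in which the low ends of the arrays also differ.

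**Figure D2:**
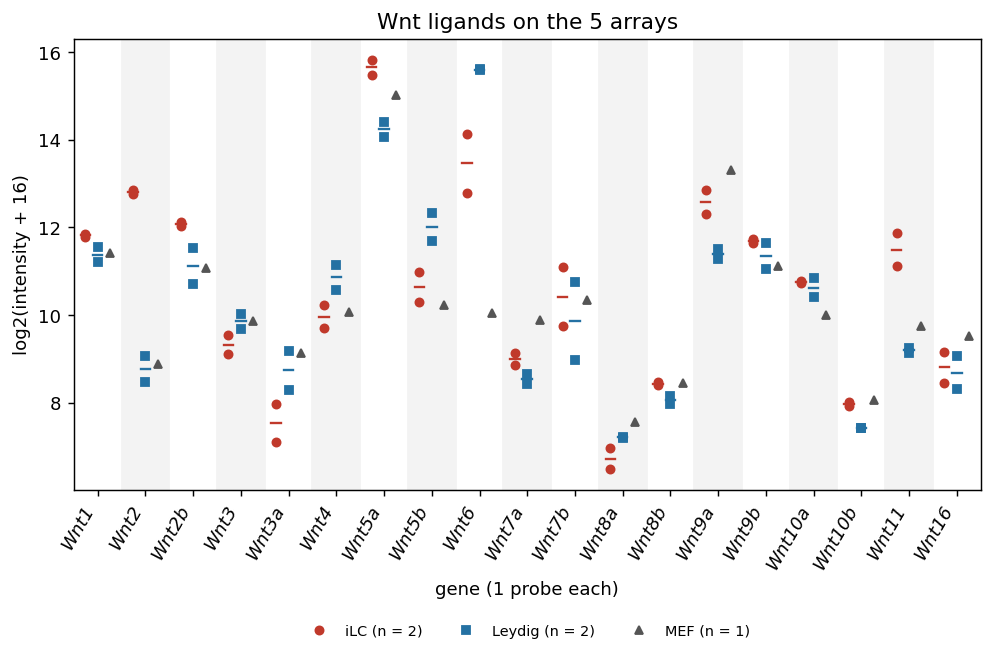
Log2(intensity + 16) of the 19 Wnt ligands on each array, with iLC and Leydig values as points and a bar at the mean of each pair, and MEF as a single triangle. Wnt2 stands apart in iLC, and Wnt6 runs from the highest values in Leydig cells, at 48967 and 49990, to 1044 in MEF.

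The secreted Frizzled-related proteins, which bind Wnts and compete with the receptors, held the 2 largest differences of iLC from MEF among the 49 genes, those of Sfrp4 and Sfrp5. Sfrp5 read 5265 and 6556 on the iLC arrays, 337 and 189 on the Leydig arrays and 201 on the MEF array. The iLC pair lay far above the other 3 arrays, and the MEF value fell inside the Leydig pair. Its log2 difference was 4.45 ± 0.38 (SE, limma adjusted p = 0.00194) from Leydig cells, held without any 1 array (highest adjusted p = 0.0324), and 4.76 ± 0.47 (adjusted p = 0.0288) from MEF, where leaving out any 1 of the 4 arrays ended it (adjusted p = 0.125 to 0.146, difference 4.60 to 4.92). The values on Leydig replicate 2 and MEF lay below the 20th percentile of those arrays, which was 218 and 263.

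Sfrp1 read 206024 and 120698 in iLC, 16188 and 5039 in Leydig cells and 19322 in MEF. No groups overlapped, and iLC were highest. The log2 difference was 4.12 ± 0.60 (SE, limma adjusted p = 0.00985) from Leydig cells, which no longer passed once iLC replicate 1 or Leydig replicate 2 was left out (highest adjusted p = 0.0639, difference 3.28 to 4.96). From MEF it was 3.03 ± 0.74 and did not pass (adjusted p = 0.139). Sfrp4 read 24686 and 10886 in iLC, 5410 and 1107 in Leydig cells and 268 in MEF. Both pairs were wide but did not overlap, with iLC highest and MEF lowest. Its difference of 5.85 ± 0.96 from MEF did not pass (adjusted p = 0.0681), nor did those of iLC from Leydig cells (2.73, adjusted p = 0.0805) and of Leydig cells from MEF (3.12, adjusted p = 0.129). Sfrp2 read 4800 and 2756 in iLC, 2850 and 1538 in Leydig cells and 2142 in MEF, and the iLC and Leydig values overlapped. All 4 Sfrp genes were thus higher on both iLC arrays than on the MEF array, as were 34.0% of all genes. The median difference of the 4 was 3.89, and 1 of them was called.

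Among the Dickkopf genes, Dkk2 and Dkk3 were lower in Leydig cells than in both other groups. The fibroblast markers Postn, Thy1, Fn1 and Lox, 4 of 5 smooth muscle markers and 2 of 5 macrophage markers, Csf1r and C1qa, were also lower in Leydig cells. The fibroblast marker Pdgfra was higher (values above). The part of these markers in the Dickkopf differences was not tested. Dkk3, a secreted Dickkopf protein whose part in Wnt signalling is less settled than that of its relatives, read 34780 and 25938 in iLC, 429 and 247 in Leydig cells and 26207 in MEF. The MEF value fell inside the iLC pair and the Leydig values lay far below. The log2 difference was 6.46 ± 0.39 (SE, limma adjusted p = 0.00105) for iLC against Leydig cells and -6.26 ± 0.47 (adjusted p = 0.00308) for Leydig cells against MEF. Both calls held without any 1 array (highest adjusted p = 0.0306 and 0.0496), and the difference of iLC from MEF was 0.20 ± 0.47 (adjusted p = 0.883).

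Dkk2, which binds the Lrp co-receptors, read 5511 and 9127 in iLC, 1625 and 1386 in Leydig cells and 15913 in MEF. No groups overlapped, MEF being highest and Leydig cells lowest. Dkk2 was higher in iLC than in Leydig cells by 2.23 ± 0.37 (SE, limma adjusted p = 0.0146) and lower in Leydig cells than in MEF by a difference of -3.39 ± 0.45 (adjusted p = 0.0107), while the difference of iLC from MEF, -1.16 ± 0.45, did not pass (adjusted p = 0.296). Leaving out iLC replicate 2 or a Leydig array ended the first call (highest adjusted p = 0.113, difference 1.87 to 2.59), and leaving out a Leydig array ended the second (highest adjusted p = 0.0826, difference -3.51 to -3.28). Dkk1 read between 150 and 240 on the 5 arrays and Dkk4 between 202 and 313, and neither was called. Wif1, the Wnt inhibitory factor, read 496 on both iLC arrays, 228 and 292 on the Leydig arrays and 549 on the MEF array, with no call (adjusted p = 0.127 for iLC against Leydig cells). Dkkl1, known as an acrosomal protein of developing sperm, read 13926 and 13292 in iLC, 14608 and 10668 in Leydig cells and 11904 in MEF. Its iLC and Leydig values overlapped, while the protamine gene Prm1 read 144 and 168 in iLC, 6235 and 141591 in Leydig cells and 238 in MEF.

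The R-spondins, which strengthen Wnt signals through Lgr receptors, split in 2 directions. Rspo3 read 3823 and 3721 in iLC, 789 and 286 in Leydig cells and 4183 in MEF. It was higher in iLC than in Leydig cells by a log2 difference of 2.94 ± 0.50 (SE, limma adjusted p = 0.0161) and lower in Leydig cells than in MEF by -3.09 ± 0.61 (adjusted p = 0.0349). Rspo1 read 159 and 209 in iLC, 944 and 631 in Leydig cells and 164 in MEF. Both Leydig values lay above the other 3, with differences of -1.99 ± 0.35 for iLC against Leydig cells (adjusted p = 0.0187) and 2.13 ± 0.43 for Leydig cells against MEF (adjusted p = 0.0382). The MEF value of Rspo3 was above the iLC pair, and all 3 were above both Leydig arrays. The iLC and MEF values of Rspo1 lay below the 20th percentile of their arrays. Markers of several cell types were also called higher in Leydig cells than in both other groups. These were Clu and Cldn11 (2 of 8 Sertoli cell markers), Dazl, Cdh5, Pdgfra, Cyp17a1, Hsd3b1 and Nr5a1. Other members of their lists, such as Spaca1, Star, Kdr and Postn, read lower in Leydig cells than in iLC. The part of these markers was not tested. Both Rspo3 calls ended when either iLC array or Leydig replicate 2 was left out (highest adjusted p = 0.0848, difference 2.23 to 3.65 from Leydig cells, and 0.0839, difference -3.80 to -2.38, for Leydig cells against MEF), and both Rspo1 calls when any 1 of the 4 was (highest adjusted p = 0.102, difference -2.27 to -1.70, and 0.120, difference 1.85 to 2.42). Rspo2 read 1372 and 1226 in iLC, 818 and 783 in Leydig cells and 1553 in MEF, without a call, and Rspo4 read between 67.5 and 266.

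**Figure D3:**
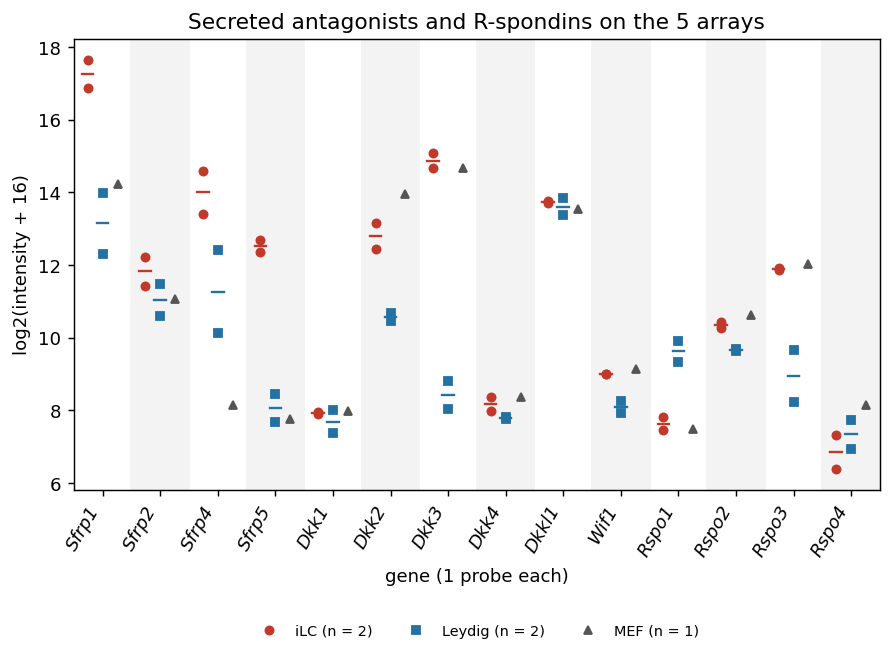
Log2(intensity + 16) of the 10 Sfrp, Dkk and Wif1 genes, grouped by name as secreted antagonists, and the 4 R-spondins on each array, with a bar at the mean of each pair. Sfrp1, Sfrp4 and Sfrp5 are highest in iLC, whereas Dkk3 and Rspo3 are lower in Leydig cells than in iLC and MEF, and Rspo1 is highest in Leydig cells.

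Of the 10 Frizzled receptors, 2 were called between iLC and Leydig cells, Fzd6 and Fzd7, both higher in iLC, where 5.74% of all genes were called higher. Fzd6, a receptor known for planar polarity of hair, read 25825 and 29684 in iLC, 4993 and 7023 in Leydig cells and 12913 in MEF. No groups overlapped, with MEF between iLC and Leydig cells, and the log2 difference from Leydig cells was 2.22 ± 0.33 (SE, limma adjusted p = 0.0104). Fzd7 read 35592 and 40403 in iLC, 8523 and 10714 in Leydig cells and 43295 in MEF. The MEF value stood just above the iLC pair and the Leydig values well below, with differences of 1.99 ± 0.32 for iLC against Leydig cells (adjusted p = 0.0129) and -2.18 ± 0.39 for Leydig cells against MEF (adjusted p = 0.0251). None of these 3 calls held once 1 of the 4 arrays was left out, at adjusted p-values of 0.0533 to 0.0635 for Fzd6, 0.0639 to 0.0722 for Fzd7 against Leydig cells and 0.0552 to 0.0897 for Fzd7 in Leydig cells against MEF. The part of the fibroblast and smooth muscle markers, of which 8 were called lower and Pdgfra higher in Leydig cells, was not tested. Nor was that of the macrophage markers Csf1r and C1qa, also called lower in Leydig cells than in both other groups. Fzd1 read 11139 and 11487 in iLC, 4405 and 6617 in Leydig cells and 7027 in MEF, and Fzd8 read 8983 and 6555 in iLC, 3968 and 3136 in Leydig cells and 5537 in MEF. For both, iLC lay above the other groups on the probe used, without a call (adjusted p = 0.106 and 0.0919 against Leydig cells). The other Fzd8 probe was dim on every array and highest in MEF. It read 174.5 and 144 in iLC, 117 and 60.5 in Leydig cells and 227 in MEF.

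Fzd2 read 11592 and 9936 in iLC, 12686 and 6389 in Leydig cells and 21969 in MEF, a MEF value above the other 4 without a call (adjusted p = 0.387 for iLC against MEF). Its other probe also read highest on the MEF array, at 14107. Fzd3 read 2365 and 2171 in iLC, 4089 and 2545 in Leydig cells and 1174 in MEF, while its other probe read 179 or less on every array. Fzd5, read between 1499 and 4779 with MEF highest, Fzd9, between 1553 and 2470, and Fzd10, between 631 and 1308, were not called, and Fzd4 was dim on every array. Another Fzd5 probe was highest in iLC, at 829 and 1227 against 659 in MEF, and a further one was highest in MEF, at 589. The other Fzd10 probe read 227 or less on every array, with MEF highest. The median difference of the 10 receptors was 0.75 for iLC against Leydig cells and -0.63 for Leydig cells against MEF. The co-receptor Lrp5 was called in no comparison, reading 8199 and 8276 in iLC, 8891 and 8506 in Leydig cells and 7477 in MEF. Lrp6, the other co-receptor, read -3.38 and 20.6 in iLC, 38.0 and 39.5 in Leydig cells and 92.0 in MEF, values within the differences between the arrays' low ends, and its difference of -2.16 ± 0.55 from MEF did not pass (limma adjusted p = 0.153).

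At the nuclear end, no factor was called in any comparison. Axin2, the negative feedback target often read as a measure of beta-catenin signalling, read 4221 and 5109 in iLC, 4824 and 5408 in Leydig cells and 3512 in MEF. The iLC and Leydig values overlapped, and all 4 lay above the MEF array, with log2 differences of 0.40 ± 0.38 for iLC (SE, limma adjusted p = 0.671) and 0.54 ± 0.38 for Leydig cells (adjusted p = 0.521) against MEF. Tcf7l1, mostly a repressor, read 7192 and 9816 in iLC, 19056 and 13973 in Leydig cells and 13006 in MEF. Tcf7l2 read 6708 and 9005 in iLC, 13360 and 12297 in Leydig cells and 10472 in MEF. For both Tcf genes the iLC pair was lowest, the Leydig pair highest and the MEF array between, without a call (adjusted p = 0.143 and 0.219 for iLC against Leydig cells). Lef1 read between 91.3 and 285.

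**Figure D4:**
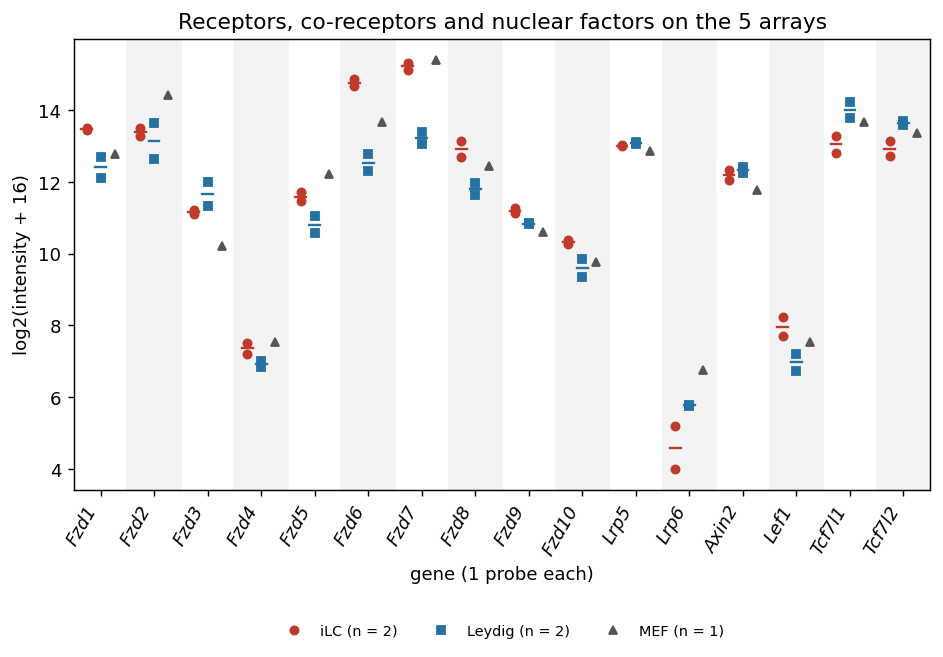
Log2(intensity + 16) of the 10 Frizzled receptors, the co-receptors Lrp5 and Lrp6, and Axin2, Lef1, Tcf7l1 and Tcf7l2 on each array, with a bar at the mean of each pair. Fzd6 and Fzd7 lie lower in Leydig cells than in iLC, while Lrp5 spans 7477 to 8891 and Axin2 3512 to 5408 over the 5 arrays, and Lrp6 reads 92.0 or less.

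The lists of other pathway genes were set beside the family. Of 20 secreted and surface regulators, 0 were called between iLC and MEF by limma, with 2 higher and 0 lower at an unadjusted p under 0.05 (5.57% and 10.2% of all genes), and 3 were called higher in iLC than in Leydig cells (5.74% of all genes). Frzb, a further secreted Frizzled-related protein, read 12160 and 14122 in iLC, 478 and 304 in Leydig cells and 3226 in MEF (log2 difference 5.04 ± 0.35 SE from Leydig cells, adjusted p = 0.0013; 2.02 from MEF, adjusted p = 0.107). Cthrc1, a secreted glycoprotein that favours Wnt signalling through planar polarity, read 53237 and 50748 in iLC, 159 and 117 in Leydig cells and 13059 in MEF, with a difference of 8.41 ± 0.32 from Leydig cells (adjusted p = 0.000908). Tpbg, a membrane protein known from zebrafish to restrain beta-catenin signalling, read 6572 and 4100 in iLC, 289 and 361 in Leydig cells and 8889 in MEF, with a difference of 3.94 ± 0.36 (adjusted p = 0.00216). These 3 calls held without any 1 array (highest adjusted p = 0.0365), and the same 3 genes were the ones called lower in Leydig cells than in MEF, where Frzb (adjusted p = 0.0745) and Tpbg (adjusted p = 0.0530) lost their calls without Leydig replicate 2. Of all genes, 3.99% were called lower in Leydig cells than in MEF. Wls and Porcn, needed to secrete and lipid-modify Wnts, were not called, Wls reading 177857 and 102023 in iLC, 68654 and 67877 in Leydig cells and 147375 in MEF.

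Of 14 non-canonical receptors and planar polarity genes, 0 were called between iLC and MEF by limma, with 1 higher at an unadjusted p under 0.05 (5.57% of all genes), and 2, Ryk and Ptk7, were higher in iLC than in Leydig cells (5.74% of all genes). Ryk, a receptor-like kinase that binds Wnts, read 61600 and 73098 in iLC, 17639 and 16833 in Leydig cells and 80422 in MEF (log2 difference 1.96 ± 0.31 SE from Leydig cells, adjusted p = 0.0121). Ptk7, a co-receptor of planar polarity, read 9779 and 10771 in iLC, 2628 and 1290 in Leydig cells and 14088 in MEF (2.47 ± 0.42, adjusted p = 0.0158). For both, the iLC pair stood between Leydig cells and the MEF array. Both were also called lower in Leydig cells than in MEF (-2.22, adjusted p = 0.0216, and -2.92, adjusted p = 0.0238), as were 3.99% of all genes. The Ryk call between iLC and Leydig cells ended when any 1 array was left out (highest adjusted p = 0.0831), and that against MEF when a Leydig array was (0.102). Both Ptk7 calls ended when either iLC array or Leydig replicate 2 was left out (highest adjusted p = 0.0808 and 0.0839).

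Of 28 cytoplasmic and nuclear transducers, 0 were called between iLC and MEF by limma, with 1 higher at an unadjusted p under 0.05 (5.57% of all genes). Between iLC and Leydig cells 2 were called higher and 2 lower in iLC, near the shares of all genes, 5.74% and 5.69%, with a median of 0.04. Tnks, a tankyrase that promotes the breakdown of Axin, read 3104 and 2757 in iLC, 357 and 252 in Leydig cells and 529 in MEF (3.22 ± 0.33, SE, limma adjusted p = 0.00298, held without any 1 array). Csnk1e, a casein kinase that acts on Dishevelled, was also higher (1.93, adjusted p = 0.0294). Gsk3b, a kinase of the beta-catenin destruction complex (-1.72, adjusted p = 0.0372), and the beta-catenin cofactor gene Pygo1 (-1.89, adjusted p = 0.016) were lower. Gsk3b read 199 and 115 in iLC, 466 and 621 in Leydig cells and 121 in MEF. Its values on iLC replicate 2 and MEF lay below the 20th percentile of those arrays. Pygo1 was also the 1 gene of the list called between Leydig cells and MEF (1.87, adjusted p = 0.0429), where 3.39% of all genes were called higher. Leaving out iLC replicate 2 or a Leydig array ended the Csnk1e call (highest adjusted p = 0.162, difference 1.48 to 2.38), and leaving out any 1 of the 4 ended those of Gsk3b (0.195, difference -2.09 to -1.36) and Pygo1 (0.101, and 0.153 for Leydig cells against MEF). Ctnnb1, which encodes beta-catenin, read 96021 and 63599 in iLC, 59892 and 55375 in Leydig cells and 79521 in MEF, without a call.

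Of 12 genes often cited as beta-catenin targets, 0 were called between iLC and MEF by limma, with 1 higher and 2 lower at an unadjusted p under 0.05 (5.57% and 10.2% of all genes), and 2, Ccnd1 and Cd44, were higher in iLC than in Leydig cells (5.74% of all genes). Ccnd1, which encodes cyclin D1, read 76446 and 119167 in iLC, 4801 and 5028 in Leydig cells and 68749 in MEF (log2 difference 4.28 ± 0.35 SE from Leydig cells, adjusted p = 0.00179). Cd44, a hyaluronan receptor, read 19040 and 18021 in iLC, 844 and 2019 in Leydig cells and 53064 in MEF (3.81 ± 0.46, adjusted p = 0.00523). Both calls held without any 1 array (highest adjusted p = 0.0379). Between Leydig cells and MEF, Ccnd1 (-3.80, adjusted p = 0.00717), Cd44 (-5.33, adjusted p = 0.006) and Ccn4 (-2.74, adjusted p = 0.0216), which encodes a secreted matricellular protein, were called lower in Leydig cells (3.99% of all genes). Of these, Ccnd1 lost its call when Leydig replicate 2 was left out (adjusted p = 0.0665) and Ccn4 when either Leydig array was (highest adjusted p = 0.0971). Of the 8 fibroblast markers 4 were called lower and 1, Pdgfra, higher in Leydig cells than in MEF, and their part was not tested. Nkd1, a feedback inhibitor, and Myc were not called, with differences between iLC and Leydig cells of -0.02 and -0.35. At an unadjusted limma p under 0.05, 5 of the 12 were higher in iLC than in Leydig cells and 0 lower. They included Ccn4 (1.43), Nkd2 (0.85) and Ascl2 (0.78), which were not called there. Of all 19084 genes, 5122 had such a p in either direction. The list's median was 0.73 between iLC and Leydig cells, and Axin2, described above, had a difference of -0.14 there.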

How the data were processed

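The authors deposited probe intensities on a linear scale, 1 value per probe and array. Background correction, normalization and programs: not given in the sources used here. Per the labels' protocols, RNA was amplified and labelled with Cy5. No detection calls were used. Titles gave each sample's group. Of 26423 probes, 21876 carried 1 gene symbol and none several, and each of 19084 genes was read from its brightest probe (mean intensity over 5 arrays). The 49 members' symbols all matched RefSeq (GRCm38.p6) through Entrez identifiers. Of 6 members with several probes, the 7 unused probes had the sign of the used one 3 times for iLC against MEF, 5 times for iLC against Leydig cells and 6 times for Leydig cells against MEF.

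Values below 0 were set to 0 and taken to log2 after adding 16. The linear model of limma 3.58.1 (R 4.3.3; lmFit, eBayes) had 1 mean per group over the 5 arrays, with 2 residual and 4.19 prior degrees of freedom; tests were two-sided, with Benjamini-Hochberg adjustment over the 19084 genes of each of 3 comparisons. It was also run on simulated data. There all 5 arrays were given the same spread, so the run could not check whether the MEF array varies like the pairs. Root mean square standard deviations of paired arrays were 0.459 (iLC) and 0.549 (Leydig) on the log2 scale, and the number of arrays limits the precision. Statistics were printed for called members and, between iLC and MEF, where fewer than 6 were called, for the members of largest difference up to 6. Other members were given by their values, with statistics of some that did not pass (such as Axin2, Wnt5b and Fzd1) added after their values were seen. Pathway lists and markers were fixed by name. The members, lists and tests were chosen with earlier results of these data known. Alternatives were another added constant, centring, quantile normalization, a filter on dim genes, aligned low ends, a floor, other uses of several probes, an intensity trend, fewer arrays and the replicate number as a block. Promoter windows came from RefSeq (GRCm38.p6).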

Additional observations from a re-analysis of the deposited data

How the results depend on the processing

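Each result was recomputed under 16 alternatives, except that Lrp6 did not pass the filter on dim genes. All differences of the called members, and of the members named between iLC and MEF, kept their direction or, for Lrp6 with values under 200 set to 200, became 0; calls ended in 14 of 95 such values (and 11 gained one) for iLC against MEF, in 43 of 192 for iLC against Leydig cells and in 34 of 112 for Leydig cells against MEF. Between iLC and MEF, 2 members were called higher. The count was 4 with log2(value + 64), 4 after centring, 4 after quantile normalization, and 0 with aligned low ends, with values under 200 set to 200, with only the 2 groups compared, or without any 1 array (0 to 0), limma then giving 7 to 11 members an unadjusted p under 0.05. Between iLC and Leydig cells, 10 were higher and 2 lower. With values under 200 set to 200 these were 1 and 0, with aligned low ends 1 was lower, and without 1 array 3 to 6 were higher and 0 to 1 lower. Between Leydig cells and MEF, 2 were higher and 5 lower. With the largest added constant tried 1 was higher, with aligned low ends 3 were lower, with values under 200 set to 200 there were 0 and 0, with only the 2 groups compared 1 and 2, and without 1 array 0 to 1 and 1 to 2. Setting values under 200 to 200 leaves dim genes without spread, and prior degrees of freedom were then 0.626, against 4.19. Each left-out array costs 1 residual degree of freedom of 2. Otherwise the cause was not tested. Calls over all genes also fell in all 3 comparisons with aligned low ends, with values under 200 set to 200 and without any 1 array. Between iLC and Leydig cells, 1095 of all genes were called higher and 1086 lower. With values under 200 set to 200 these were 211 and 194, and with aligned low ends 915 and 798. Over all genes the iLC to MEF calls were 54 upward and 55 downward, against 125 and 162 with log2(value + 64), 131 and 215 after centring, 171 and 208 after quantile normalization and 6 and 0 with aligned low ends, which moved the median over all genes to 0.12, against -0.11.

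The labels do not say what the replicate numbers of the iLC and Leydig arrays stand for, and whether equal numbers share a batch was not tested. The differences within the pairs correlated at 0.0552 across genes. With the replicate block, 5 members were higher and 1 lower between iLC and MEF and 4 higher between Leydig cells and MEF. Over all genes the block gave 450 higher and 912 lower calls between iLC and MEF, against 54 and 55. It leaves 1 residual degree of freedom, and with it the prior degrees of freedom were infinite, which gives every gene the same variance.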
